A study of Rattus norvegicus with 5 samples.

Results

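The integrated stress response genes described here are 10 genes given by symbol: Atf4, Ddit3, Trib3, Asns, Chac1, Sesn2, Ppp1r15a, Xbp1, Herpud1 and Ddit4. A gene was taken where a probe set of the array was annotated with that single symbol, which left 9 of the 10, each with 1 probe set, among 14506 genes in all. Sesn2 was not paired with a probe set of its own and is not analysed here. The samples were proximal tubular cells, which line the part of the nephron just after the glomerulus, from Sprague-Dawley rats with type I diabetes. Cells on 3 arrays had been treated with C-peptide, the connecting peptide cleaved from proinsulin, for 2 h, and cells on 2 arrays had been left untreated for the same time. Within a group each array is labelled with a different animal, both groups were diabetic, and no array came from a rat without diabetes. Age, sex, how diabetes was brought about and the dose of C-peptide are not stated in the sources used here. The comparison of C-peptide with untreated cells asks which transcripts differ early after exposure to the peptide.

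The integrated stress response begins when 1 of 4 kinases, each sensing a different stress, phosphorylates the translation initiation factor eIF2. Most protein synthesis is then slowed, while the message of the transcription factor ATF4 is translated more, so that ATF4 activity is set largely at a step that an RNA array does not measure. ATF4 and its partners raise genes of amino acid synthesis and transport, the factor CHOP and a phosphatase subunit that reverses the signal. A neighbouring pathway, the unfolded protein response of the endoplasmic reticulum, shares the kinase PERK and adds the factors XBP1 and ATF6. In the proximal tubule both are known as responses to toxins, protein load and shortage of nutrients.

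Several of these genes carry known response elements, and those found by their letters within 250 bases before and 50 after the annotated start are shown because they are the elements through which ATF4, CREB and the unfolded protein response factors are known to act. The promoter sequences are RefSeq's, of rat assembly GRCr8, and all 10 genes had an entry. Both strands were searched for TGATGNAA, the core of the composite element that C/EBP and ATF factors bind. They were also searched for TGACGTCA, the cAMP response element, which reads the same on both strands. The last search was for CCAAT followed after 9 bases by CCACG, 1 form of the unfolded protein response element. Other forms and spacings were not searched, so a promoter without a match may still hold such an element. None of the matches overlapped another. The C/EBP-ATF core was present in 3 of the 10 promoters and in 3.98% of all 33469 promoters of the same length. The cAMP response element was present in 1 of the 10 and in 1.83% of all. The searched form of the unfolded protein response element was present in 1 of the 10 and in 0.0657% of all. Positions count from the start, -1 being the base before it, and give the 5′ base of the match, which is in capitals.
Trib3: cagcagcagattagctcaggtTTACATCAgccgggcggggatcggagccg
Chac1: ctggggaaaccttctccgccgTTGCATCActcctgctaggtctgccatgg
Herpud1: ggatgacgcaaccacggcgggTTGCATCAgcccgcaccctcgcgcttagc
Xbp1: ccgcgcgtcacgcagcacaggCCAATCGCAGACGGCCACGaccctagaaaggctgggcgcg
These stretches lie at chr3:161275526-161275575 (minus strand, match at -21) for Trib3, chr3:126795943-126795992 (plus strand, match at -167) for Chac1, chr19:10614863-10614912 (minus strand, match at -184) for Herpud1 and chr14:84604537-84604597 (plus strand, match at -65) for Xbp1. In the first 3 the core reads on the strand opposite to the gene. The promoter of Ppp1r15a, the gene with the largest difference of the 9 in these arrays, is shown whole at chr1:105139547-105139846 (minus strand), with its cAMP response element at -66.
Ppp1r15a: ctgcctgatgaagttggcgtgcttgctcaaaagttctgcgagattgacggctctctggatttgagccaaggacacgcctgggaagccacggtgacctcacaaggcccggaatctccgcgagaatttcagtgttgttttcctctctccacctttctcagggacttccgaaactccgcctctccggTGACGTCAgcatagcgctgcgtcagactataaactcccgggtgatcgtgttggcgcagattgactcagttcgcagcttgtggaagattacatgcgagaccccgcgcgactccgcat
A match is a run of letters, and no binding was measured.

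Array medians as deposited ranged from 60.1 to 95.9 in the C-peptide group and from 84.4 to 92.2 in the untreated group, and intensities were therefore quantile normalised. Values below are normalised intensities on a linear scale, and differences are C-peptide minus untreated on the log2(intensity + 16) scale, on which the median of all probe sets was 0.02. All 20 markers of the labelled cells, the proximal tubule, were measured, with a summed intensity of 40595 to 53474 in the C-peptide group and 30925 to 36174 in the untreated group and none at 0 on all arrays. Markers of other cells also gave signal. The 11 measured endothelial markers summed to 8655 to 13615 in the C-peptide group and 20920 to 24626 in the untreated group, the 16 immune cell markers to 3438 to 4918 in the C-peptide group and 5829 to 5867 in the untreated group, and the 6 podocyte markers to 1536 to 2532 in the C-peptide group and 3889 to 4723 in the untreated group. No marker of these 3 lists was at 0 on all arrays. Their part in the differences below was not tested. In such a mixture, fewer cells of a type and less RNA per cell cannot be told apart.

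None of the 9 genes passed adjusted p 0.05 in limma, where 0% of the 29215 probe sets did. One of the 9, Ppp1r15a, had an unadjusted p under 0.05 and was lower with C-peptide. Of all genes, 13.1% had such a p, 7.12% lower and 5.94% higher, so that the share among the stress response genes was close to that of all genes. The 9 differences ran from -0.52 to 0.20 with a median of -0.03, beside a median of 0.03 over all genes, and 4 lay above 0 and 5 below. That median lay between -0.096 and 0.035 as single arrays were left out. Groups did not overlap for Ppp1r15a and Atf4, both lower with C-peptide, and for Xbp1, which was higher. Such separation was found in 33.6% of all genes, 14.9% lower and 18.7% higher, which is near 3 of 9. In the values as deposited 4 of the 9 separated, Atf4, Ddit3, Ppp1r15a and Ddit4, all lower with C-peptide. On that scale the median of all probe sets was -0.13, and 20.7% of all probe sets separated, beside 29.97% of them after normalisation. The share of all genes was not counted as deposited, so the 20.7% is not a like background to the 33.6%.

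**Figure D1:**
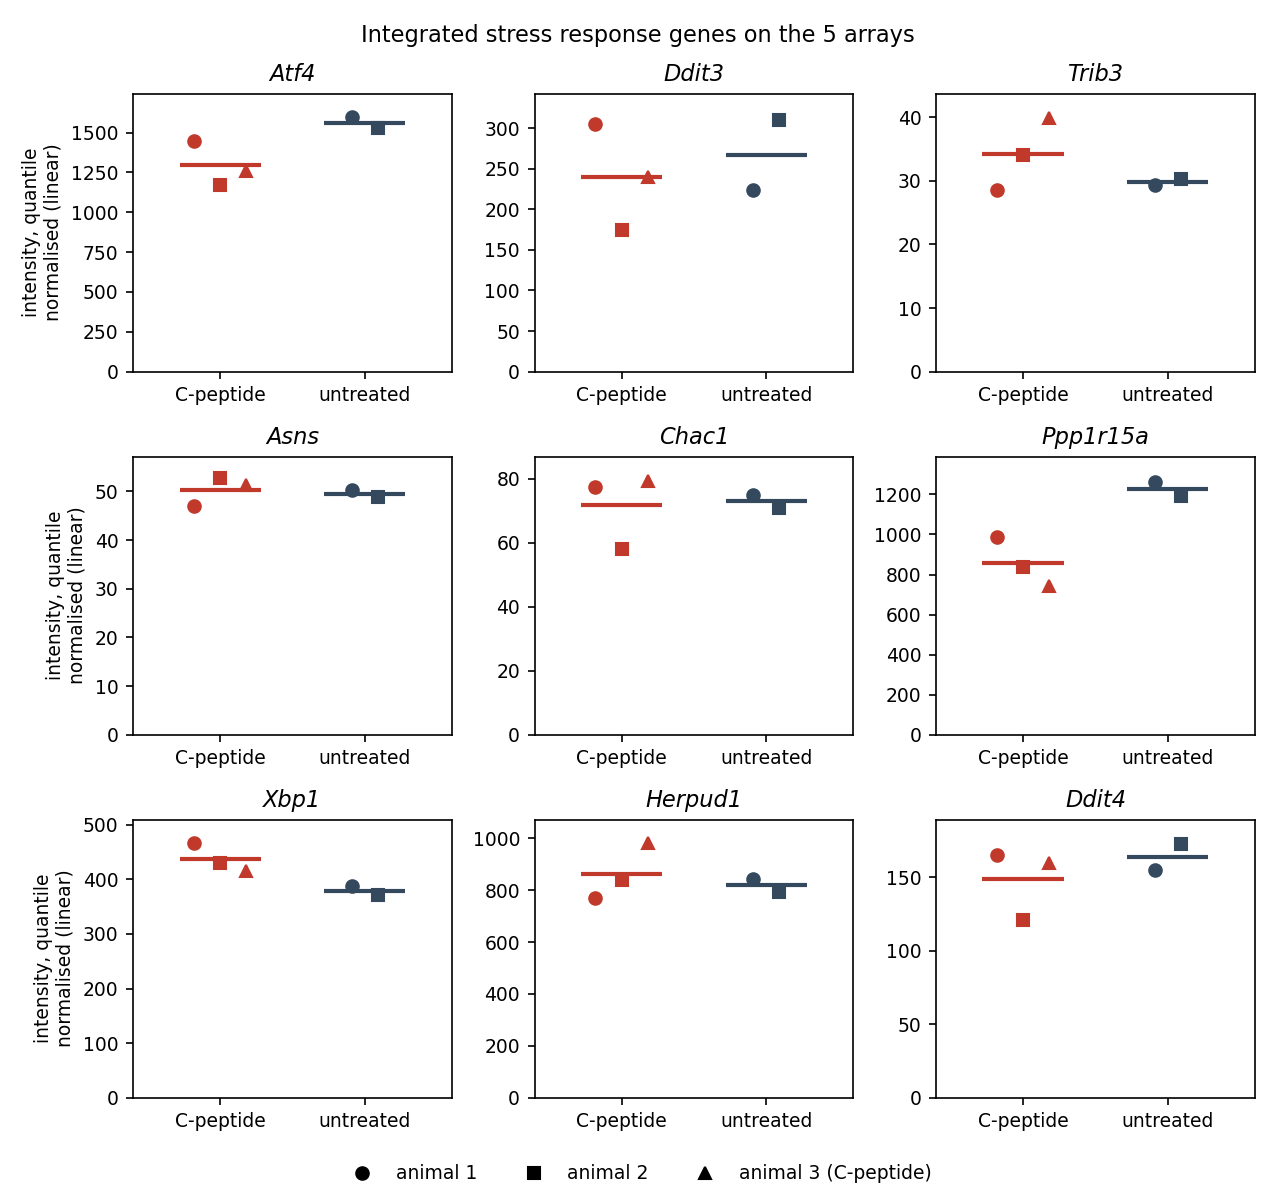
Quantile-normalised intensity (linear, from 0) of the 9 genes on the 3 C-peptide arrays (left, red) and the 2 untreated arrays (right, blue); the horizontal line is the group mean and the symbol gives the animal number. The C-peptide arrays of Ppp1r15a lie between 743 and 988, below both untreated arrays, while those of Ddit3 spread from 174.9 to 305, either side of untreated animal 1 and below untreated animal 2.

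Ppp1r15a encodes GADD34, the stress-induced subunit that directs protein phosphatase 1 to eIF2 and so ends the response. C-peptide animals 1, 2 and 3 had normalised intensities of 988, 836 and 743, and untreated animals 1 and 2 had 1261 and 1193, the order used throughout. All 3 C-peptide arrays lay below both untreated arrays, as they also did in the values as deposited, at 750.0, 927 and 739.8 in C-peptide cells and 1297 and 1341 in untreated cells. The mean was 856 ± 124 in C-peptide cells (SD, n = 3) and 1227 ± 47.6 in untreated cells (SD, n = 2). The difference was -0.52 ± 0.16 (SE), a ratio of 0.697 with a 95% interval of 0.533 to 0.910, at an unadjusted p of 0.0149 and an adjusted p of 0.314 in limma. Over the alternative settings the difference stayed between -0.71 and -0.43 and the adjusted p between 0.127 and 0.843. The unadjusted p was above 0.05 without either untreated animal and with the animal number as a block. On the same arrays endothelial markers had a median difference of -1.17 and immune cell markers of -0.45. Its constitutive counterpart Ppp1r15b, named after its value was seen, had intensities of 598, 578 and 645 in C-peptide cells and 568 and 547 in untreated cells, with a difference of 0.12 ± 0.14. Whether the 2 subunits differed from each other in response was not tested.

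Atf4, the central transcription factor of the response, had intensities of 1448, 1174 and 1261 in C-peptide cells and 1595 and 1528 in untreated cells. The C-peptide arrays again all lay below the untreated ones, by the narrow gap between C-peptide animal 1 and untreated animal 2. The difference was -0.27 ± 0.15 (SE), with a 95% interval of the ratio from 0.647 to 1.06 and an adjusted p of 0.545 in limma. Its unadjusted p was 0.112, and under 0.05 at a pseudocount of 64 or without C-peptide animal 1. The difference without each array in turn ran from -0.35 to -0.21. With each array centred on its median the Atf4 groups overlapped.

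Ddit3 encodes CHOP, a C/EBP family factor that ATF4 raises and that is linked to cell death under lasting stress. Intensities were 305, 174.9 and 239.8 in C-peptide cells and 224 and 311 in untreated cells. The highest and the lowest C-peptide arrays lay either side of the lower untreated one, and the untreated animals themselves differed by 0.45 on the log2 scale. Its standard error, 0.25, was the largest of the 9, and the difference of -0.16 had a 95% interval of the ratio from 0.599 to 1.34. Leaving out C-peptide animal 2 turned the sign (0.035), as did leaving out untreated animal 2 (0.064).

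Trib3, Asns, Chac1 and Ddit4 are genes that ATF4 or CHOP is known to raise. Trib3, a pseudokinase that restrains ATF4 and Akt, had intensities of 28.6, 34.0 and 39.9 in C-peptide cells and 29.4 and 30.3 in untreated cells. Asns, which makes asparagine and is a standard marker of the amino acid response, had 46.9, 52.7 and 51.3 in C-peptide cells and 50.3 and 48.8 in untreated cells. Chac1, which degrades glutathione, had 77.5, 58.2 and 79.5 in C-peptide cells and 75.0 and 71.0 in untreated cells. These 3 probe sets were dimmer than the median probe set, their groups overlapped, and their differences were 0.12 ± 0.15, 0.02 ± 0.14 and -0.03 ± 0.16. The overlap depended on the setting. Trib3 and Asns separated with each array centred on its median and without C-peptide animal 1, where 28.9% and 43.4% of all probe sets did. Chac1 separated without C-peptide animal 2, where 43.0% of all probe sets did. On a scale with 16 added, a change of such dim probe sets is understated, and at a pseudocount of 1 the difference of Trib3 was 0.18 ± 0.19. Ddit4, or REDD1, restrains the growth kinase complex mTORC1 and also answers to glucocorticoids and low oxygen. Its intensities were 166, 121 and 159.6 in C-peptide cells and 155 and 173 in untreated cells, overlapping, with a difference of -0.14 ± 0.17.

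Both genes of the unfolded protein response, Xbp1 and Herpud1, had a higher mean with C-peptide in the normalised values, and neither passed the test. Xbp1, whose messenger is spliced by the sensor IRE1 to give an active factor, had 467, 430.1 and 415 in C-peptide cells and 388 and 371 in untreated cells. All C-peptide arrays of Xbp1 lay above both untreated ones, and the difference was 0.20 ± 0.14 (SE) at an adjusted p of 0.648 in limma. This direction depended on the normalisation. In the values as deposited the Xbp1 groups overlapped and the difference was -0.03, or 0.10 relative to that scale's median of -0.13. No probe set here was assigned to the spliced form. Herpud1, a membrane protein that helps to degrade misfolded proteins, had 770.4, 839 and 982 in C-peptide cells and 845 and 791 in untreated cells, with overlap and a difference of 0.07 ± 0.16.

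The precision of the arrays sets what these values allow. The standard errors of the 9 genes ran from 0.14 to 0.25 on the log2 scale. For 6 of them, Trib3, Asns, Chac1, Xbp1, Herpud1 and Ddit4, the whole 95% interval of the ratio lay within 1.5-fold in either direction on the log2(intensity + 16) scale. Those intervals were 0.849 to 1.40 for Trib3, 0.811 to 1.26 for Asns, 0.751 to 1.28 for Chac1, 0.915 to 1.43 for Xbp1, 0.813 to 1.36 for Herpud1 and 0.688 to 1.20 for Ddit4. For Ppp1r15a, Atf4 and Ddit3 the lower end reached past that limit. These statements hold for the normalised values with 16 added, a scale that understates a change of the dim Trib3, Asns and Chac1. In the values as deposited the standard errors of the 6 genes were larger, from 0.26 for Ddit4 to 0.28 for Herpud1. At a pseudocount of 1 that of Trib3 was 0.19. The limit was not applied in those settings. The intervals carry no adjustment for the number of genes and assume that normalisation brought the arrays to a common scale.

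**Figure D2:**
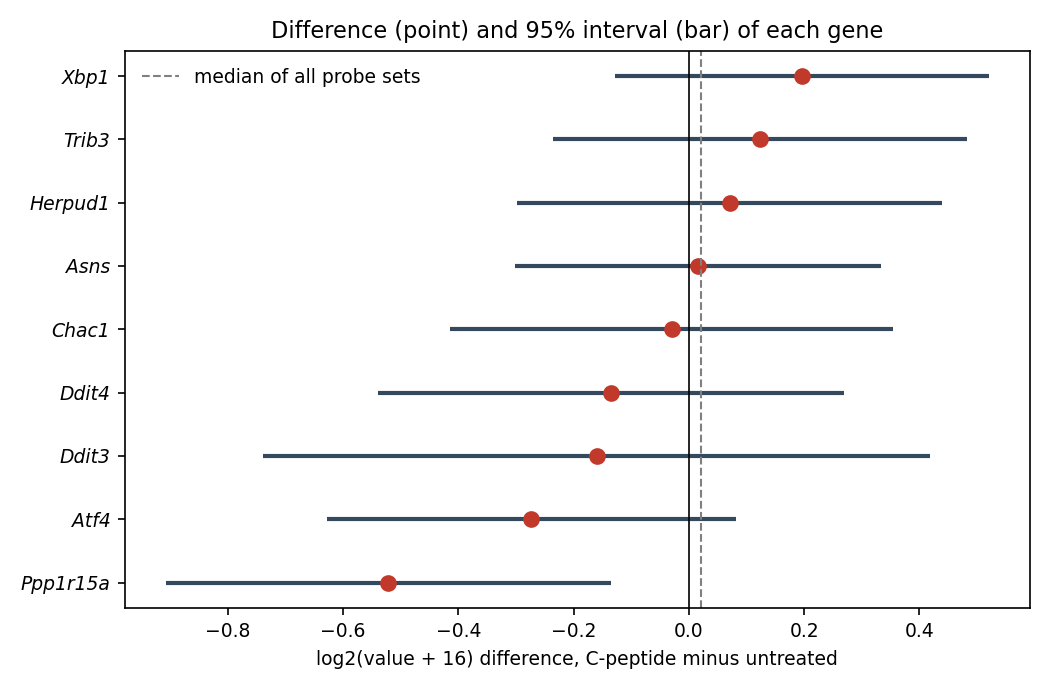
Log2 difference of each gene, C-peptide minus untreated, on the log2(intensity + 16) scale (point) with its 95% interval from limma (bar), ordered by size; the dashed line is the median of all probe sets, 0.02. Only the interval of Ppp1r15a, at -0.52, lies wholly on one side of 0.

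The genes that start and stop the signal were measured as a list of 17, the kinases, subunits of eIF2 and its exchange factor eIF2B, and regulators. None passed adjusted p 0.05, and the median difference was 0.08. At an unadjusted p under 0.05, 1 was lower and 0 higher, where 7.12% and 5.94% of all genes were. None of the 4 kinases had an unadjusted p under 0.05. Eif2ak3, or PERK, the sensor of the endoplasmic reticulum, had a difference of 0.23 ± 0.17, Eif2ak4, or GCN2, the sensor of amino acid shortage, -0.09 ± 0.14, Eif2ak1, or HRI, which senses lack of heme, -0.04 ± 0.16, and Eif2ak2, or PKR, which senses double-stranded RNA, -0.03 ± 0.23. Nck1, an adaptor protein, was the gene with the unadjusted p under 0.05, and 2 genes had one without untreated animal 2. Its intensities were 202, 238 and 216 in C-peptide cells and 329.98 and 363 in untreated cells, without overlap, for a difference of -0.63 ± 0.15 and an adjusted p of 0.187 in limma. Eif2b1 and Eif2b2, subunits of the exchange factor, were at 0.33 ± 0.17 and 0.26 ± 0.16, and Gcn1, the activator of GCN2, at 0.20 ± 0.14.

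The factors of the ATF and C/EBP families that pair with ATF4 or act beside it lay mostly below 0, 8 of 10, with a median of -0.18 and 5 genes lower without overlap, where 14.9% of all genes were. None passed adjusted p 0.05. At an unadjusted p under 0.05, 2 were lower and 0 higher, where 7.12% and 5.94% of all genes were. Cebpb, a partner of ATF4 on the composite element, had intensities of 234, 189 and 184 in C-peptide cells and 347 and 255 in untreated cells, a difference of -0.53 ± 0.19 at an adjusted p of 0.365 in limma. Jdp2, a repressor of the AP-1 family, was at -0.47 ± 0.19, Cebpg, another partner of ATF4, at -0.29 ± 0.14 and Cebpd at -0.23 ± 0.15. Atf3, a stress-induced factor named after its values were seen, had 2868, 2172 and 2408 in C-peptide cells and 2927 and 2550 in untreated cells, with overlap. The count of 2 became 0 without C-peptide animal 2 or untreated animal 1, and 1 without C-peptide animal 3 or untreated animal 2. Endothelial and immune cell markers were lower on the same arrays, by medians of 1.17 and 0.45 on the log2 scale.

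Enzymes and transporters that supply amino acids, with a few secreted factors, are the classical output of ATF4. Of 24 measured, 15 lay above 0 and 9 below, and the median was 0.02. At an unadjusted p under 0.05, 3 were higher and 0 lower, where 5.94% and 7.12% of all genes were. None passed adjusted p 0.05. The lowest difference of the 24, that of Mthfd2, named after its value was seen, was -0.38 ± 0.19. Cth, which makes cysteine, had intensities of 852, 912 and 887 in C-peptide cells and 658 and 566 in untreated cells, a difference of 0.52 ± 0.14 at an adjusted p of 0.248. Psat1, of serine synthesis, had 1125, 907 and 1225 in C-peptide cells and 749 and 760.2 in untreated cells, at 0.50 ± 0.17. Gdf15, a stress-induced hormone, had 281, 173 and 156 in C-peptide cells and 112 and 81.8 in untreated cells, at 0.93 ± 0.26 (adjusted p = 0.255 in limma). All 3, which had the smallest p of the list, separated the groups without overlap. Shmt2, of the mitochondrial one-carbon pathway, was at 0.38 ± 0.18. In the list 6 of 24 were higher without overlap, where 18.7% of all genes were. Only 1, the transporter Slc38a2 (-0.22 ± 0.15), named after its value was seen, was lower without overlap, where 14.9% of all genes were. In the values as deposited Psat1, Gdf15 and Phgdh were higher without overlap, while Mthfd2, Slc38a2, Fgf21 and Aldh18a1 were lower without overlap. The Cth groups overlapped there. Phgdh, Fgf21 and Aldh18a1 are named only for this separation. On that scale the median of all probe sets was -0.13. The count at an unadjusted p under 0.05 was 6 with C-peptide animal 2 left out, 2 with C-peptide animal 3 or untreated animal 1 left out, and 0 with untreated animal 2 left out. Proximal tubule markers had a median of 0.55 beside this list, with 12 of 20 at an unadjusted p under 0.05, all higher, and their part was not tested.

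The tRNA synthetases, which charge tRNAs with amino acids and many of which ATF4 raises, lay above 0 in 10 of 13, with a median of 0.17. In 8 of the 13 the groups did not overlap, all higher, where 18.7% of all genes were so placed. In the values as deposited none of the 13 was higher without overlap and 1 was lower. Aars1, for alanine, had 688, 565 and 718 in C-peptide cells and 531 and 466 in untreated cells. Its difference was 0.38 ± 0.16 at an unadjusted p of 0.0499 in limma. None of the list passed the adjustment. Aars1 was the 1 gene of the list under 0.05, where 5.94% of all genes were higher at that level. With any array but that of C-peptide animal 2 left out, it was 0 genes. Eprs1, for glutamate and proline, was at 0.29 ± 0.14, Nars1, for asparagine, at 0.30 ± 0.16 and Mars1, for methionine, at 0.24 ± 0.15. In the values as deposited the list's median was -0.03, where the median of all probe sets was -0.13. Proximal tubule markers, at a median of 0.55, were higher on these arrays too, and their part was not tested.

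Targets of ATF6 and XBP1 in the endoplasmic reticulum showed no common direction. Of 20 measured, 9 lay above 0 and 11 below, and the median was -0.05. None had an unadjusted p under 0.05. This count was 1 in the values as deposited, with array weights or without C-peptide animal 1. Hspa5, or BiP, the main chaperone of the compartment and named after its values were seen, had intensities of 2861, 2376 and 2672 in C-peptide cells and 2939 and 2759.8 in untreated cells, with overlap, and a difference of -0.11 ± 0.15. Sec61b, of the translocation channel, was at -0.40 ± 0.21, the isomerase Pdia6 at 0.18 ± 0.13, the cochaperone Dnajb9 at 0.18 ± 0.15 and the ubiquitin ligase Syvn1 at 0.17 ± 0.14. Of 12 sensors and effectors of the response, 11 were measured, and Ern1, the gene of IRE1, was not. The 11 had a median of 0.02, with 0 at an unadjusted p under 0.05 (1 without untreated animal 2). Among them Bcl2l11, a death factor that CHOP raises, was at -0.26 ± 0.14, Atf6b at -0.29 ± 0.17, the oxidase Ero1a at -0.24 ± 0.17 and the adaptor Traf2 at 0.16 ± 0.14.

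A further set of lists bears on Ddit4, which sits between stress, glucocorticoid and oxygen signals. Regulators of mTORC1, 14 measured, had a median of 0.05 and 0 genes at an unadjusted p under 0.05. In 6 of the 14 alternative settings this count was 1 or 2. Rheb, which activates the complex, was at -0.31 ± 0.14 and Tsc2, an inhibitor, at -0.24 ± 0.16. The nutrient GTPases Rragc and Rragd were at 0.36 ± 0.16 and 0.22 ± 0.16. Glucocorticoid targets, 12 measured, had a median of -0.30. At an unadjusted p under 0.05, 2 were higher and 3 lower, where 5.94% and 7.12% of all genes were. None passed the adjustment. The zinc finger factor Zbtb16 was at -2.04 ± 0.47 (adjusted p = 0.190 in limma), the EGF receptor inhibitor Errfi1 at 0.79 ± 0.21, the metallothionein Mt1 at 0.61 ± 0.20 and Nfkbia, the NF-kB inhibitor, at -0.44 ± 0.17. The count of 5 was 2 without untreated animal 1, and the median was -0.16 with either untreated animal 1 or C-peptide animal 2 left out. Zbtb16 passed adjusted p 0.05 in the values as deposited, where 0.178% of the 29215 probe sets did. Hypoxia targets, 14 measured, had a median of 0.11, and none passed the adjustment. At an unadjusted p under 0.05, 2 were higher and 1 lower, beside 5.94% and 7.12% of all genes. Leaving out C-peptide animal 2 made this count 5, and leaving out untreated animal 2 made it 1. The median was 0.21 when untreated animal 1 was left out and 0.05 when untreated animal 2 was. The vasodilator peptide Adm was at 0.72 ± 0.18, the oxygen sensor Egln3 at -0.93 ± 0.25, the collagen hydroxylase P4ha1 at 0.57 ± 0.19 and the glycolytic enzyme Pgk1 at 0.36 ± 0.18.

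**Figure D3:**
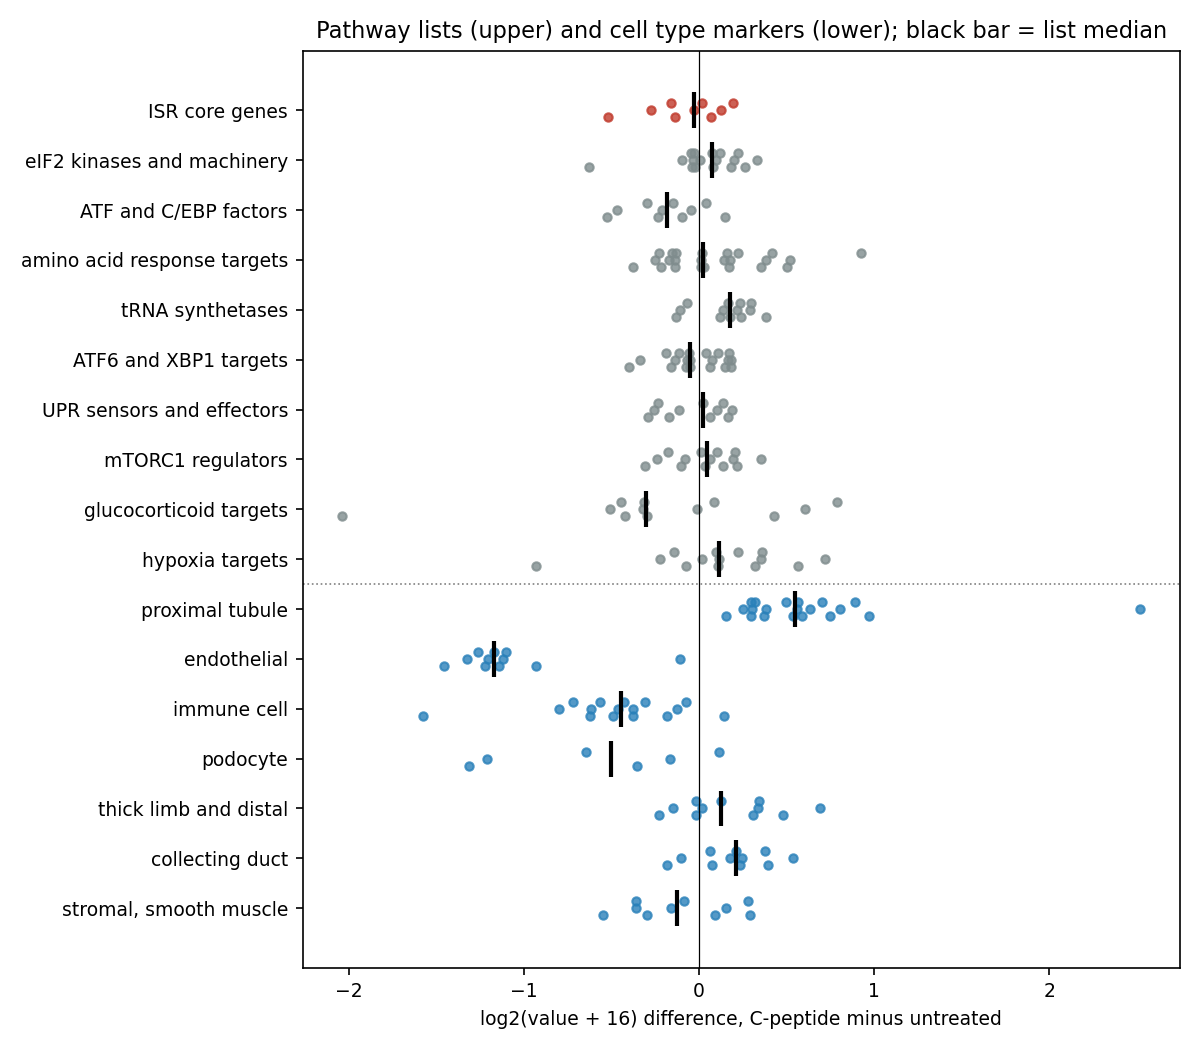
Log2 difference, C-peptide minus untreated, of every measured gene (points) in the core stress response genes (red), the pathway lists (grey) and the cell type marker lists (blue), with each list's median as a black bar. The core genes lie between -0.52 and 0.20, while the endothelial markers have a median of -1.17 and the proximal tubule markers of 0.55.

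Of all lists the endothelial one had the lowest median and the proximal tubule one the highest. Endothelial markers were lower at an unadjusted p under 0.05 in 10 of 11, immune cell markers in 8 of 16 and podocyte markers in 3 of 6, with podocyte markers at a median of -0.50. Thick limb and distal, collecting duct and stromal markers had medians of 0.13, 0.21 and -0.12, with 1 higher, 1 higher and 1 lower at that level, of 11, 11 and 10 measured. No marker of any list passed adjusted p 0.05 after normalisation, while Kap (adjusted p = 0.0145), Nkg7 (adjusted p = 0.0257) and Ehd3, of glomerular endothelium (adjusted p = 0.0495), did in limma on the values as deposited. Tek, a receptor of endothelium, was at -1.26 ± 0.21, Nkg7, of natural killer and T cells, at -1.58 ± 0.31, Podxl, of podocytes and endothelium, at -1.32 ± 0.26, and Kap, of the proximal tubule, at 2.52 ± 0.29 (adjusted p = 0.0966 in limma).

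**Figure D4:**
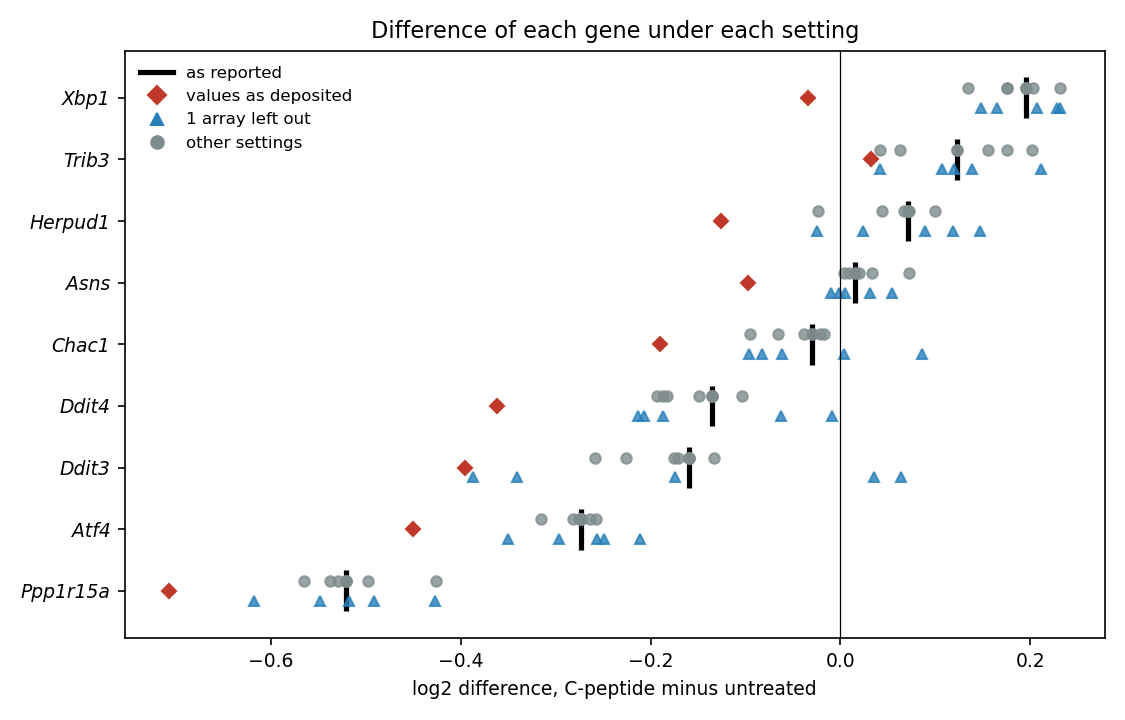
Log2 difference of each gene, C-peptide minus untreated, as reported (black bar), in the values as deposited (red diamond), with each array left out in turn (blue triangles) and under the other settings (grey circles). Ppp1r15a (from -0.71 to -0.43) and Atf4 (from -0.45 to -0.21) stay below 0 throughout, and the red diamond is the lowest value of each of the 9 genes.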

How the data were processed

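Total RNA of 5 samples was hybridised to an Affymetrix whole-transcript array. The authors deposited linear probe-set intensities, which the submitters' processing notes credit to PLIER and Affymetrix Expression Console 1.1. Background correction, scaling, filters and genome build are not stated in the sources used here. Of 29215 probe sets, 15310 had 1 annotated symbol, 323 several and 13582 none; symbols were updated through RefSeq (GRCr8), which held 15279 of the first.

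Intensities were quantile normalised, since array medians differed, and taken to log2(value + 16). A gene was its brightest 1-symbol probe set by mean over the 5 arrays. The test was limma's (version 3.58.1, R 4.3.3; lmFit, eBayes), two-sided, on a model of group alone, with p-values adjusted over all probe sets by Benjamini-Hochberg. The scripts were tested on simulated data. The genes and lists were chosen with earlier results of these data known. Named were every stress response gene, the 4 genes of each pathway list with the smallest p, the eIF2 kinases, and of the cell type lists up to 3. P-values measure the spread between these arrays, whose number limits precision. Alternatives were deposited or centred values, pseudocounts of 1 and 64, leaving out dim probe sets, averaging the probe sets of a gene, a trended robust prior, array weights, the animal number as a block, and leaving out each array.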

Additional observations from a re-analysis of the deposited data

How the results depend on the processing

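Across the 14 alternatives none of the 9 genes passed adjusted p 0.05, and Ppp1r15a, Atf4, Trib3 and Ddit4 kept their direction wherever they were measured. Trib3, Asns and Chac1 gave no value once dim probe sets were left out. With the values as deposited, where all probe sets had a median of -0.13, Asns was at -0.10, Xbp1 at -0.034 and Herpud1 at -0.125, each turned in sign against the normalised value. Leaving out single arrays moved Ddit4 between -0.21 and -0.0089 (the last without C-peptide animal 2), Trib3 between 0.041 (without C-peptide animal 3) and 0.21 (without C-peptide animal 1), Ddit3 between -0.39 and 0.064, Asns between -0.010 and 0.054, Chac1 between -0.096 and 0.086 and Herpud1 between -0.025 and 0.147, turning the sign of Ddit3 (0.035) and Chac1 without C-peptide animal 2, of Ddit3 without untreated animal 2, of Asns without C-peptide animal 2 or untreated animal 2 (-0.000928), of Chac1 without untreated animal 1 (0.0038) and of Herpud1 without C-peptide animal 3. The count of genes whose groups did not overlap was 3 to 5 over these arrays, and 5 without C-peptide animal 1 or without untreated animal 1, where 43.4% and 52.2% of all probe sets separated, beside 29.97% with all arrays. The probe sets past adjusted p 0.05 in limma numbered 0 after normalisation, with 3317 at an unadjusted p under 0.05, 52 as deposited, 29 after centring, 1 and 118 at pseudocounts of 1 and 64, 393 without dim probe sets and 207 with the trended robust prior. The pathway gene called as deposited, without dim probe sets or with the probe sets of a gene averaged was 1, Zbtb16. With the animal number as a block, Herpud1 was at -0.024, Ppp1r15a at -0.43 (adjusted p = 0.570) and 0 genes of the 9 had an unadjusted p under 0.05. Deviations of same-numbered arrays correlated at -0.02 and 0.01. With 2 untreated arrays the deviations of 1 mirror those of the other, so these values cannot show whether same-numbered arrays share an animal. The main model did not take the numbers as pairs, and the block setting did. The cause of these shifts was not tested. Leaving out single arrays put the list medians at 0.04 to 0.09 for the eIF2 machinery, -0.26 to -0.15 for the ATF and C/EBP factors, -0.000355 to 0.14 for amino acid response targets, 0.14 to 0.22 for tRNA synthetases, -0.05 to 0.05 for ATF6 and XBP1 targets, -0.14 to 0.05 for the sensors and 0.0014 to 0.13 for mTORC1 regulators. Trib3, Asns and Chac1 were dimmer than the median probe set, and whether they exceed background was not tested.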
